A study of Homo sapiens with 11 samples.

Results

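EPB41L3, FBXL7, PTPRM, CELF2, NAV3, PLXDC2 and SORL1 are 7 of the 58721 genes in the deposited count table, and all 7 were among the 23693 genes tested. They were picked from measured values, as genes with little RNA in the untreated melanoma cells and more in cells from which trametinib had been withdrawn. Their rise over the untreated cells is therefore a description here, with no test, and so is their rise in the drug-treated cells, which was read against the same single untreated library. The set was named genes still raised after drug withdrawal. All 70 of the 70 culture values, in drug and after it, lay above the untreated library. For the withdrawn values that follows from how the genes were picked, so it is no test of the name. The name covered unlike courses. PLXDC2 lost most of its level once the drug was gone, CELF2 gained further, and PTPRM was not low in the untreated cells to begin with, at the 47.6th percentile of the 15372 protein-coding genes tested. The other 6 genes were between the 4.63rd (PLXDC2) and the 22.7th percentile (SORL1) there.

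All cells were A375, an established human melanoma line with an activating BRAF mutation, with the genotype label WT. The 11 poly(A) libraries are 1 of untreated parental cells, 5 of persister cells held in 2 nM trametinib (an inhibitor of the MEK kinases downstream of BRAF) for 8 weeks, and 5 of withdrawn cells, sampled after 4 weeks without drug. A withdrawn sample carries the number of the persister culture it is named for. Everything rests on 1 cell line and 1 parental library, and no label says that the persister cultures went through drug selection apart from each other. The p-values thus set each difference against the spread among these samples. That spread may be in part technical, and it need not be the spread among independent selections. Library totals ran from 56513920 to 82984566 counts. The 10 melanocyte lineage markers did not move as a block: 9 were tested, and in persister against parental cells 5 were higher and 2 lower (edgeR), while none passed in withdrawn against parental cells. SOX10, a transcription factor of that lineage, stood at 635 CPM in the parental library, 51.9 ± 23.9 CPM (SD, n = 5) in persister cells and 814 ± 20.02 CPM (SD, n = 5) in withdrawn cells. The pigment enzyme gene DCT went the other way, from 2.94 CPM to 424 ± 216 and 34.3 ± 20.8 CPM in the same order. The 7 keratinocyte markers summed to 40.4 CPM in parental, 48.0 to 59.8 CPM in persister and 35.2 to 39.2 CPM in withdrawn cells. KRT10 made up most of that, at 34.9 CPM in parental cells, and KRT1 had 0 counts in all 11 libraries. CPM, the unit of level here, is the count relative to the scaled size of its library. In bulk RNA, a change in the number of cells that express a gene and a change in RNA per cell cannot be told apart.

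The 7 genes work in different parts of the cell. EPB41L3 belongs to the protein 4.1 family, which links membrane proteins to the spectrin and actin skeleton under the plasma membrane. PTPRM is a receptor tyrosine phosphatase that binds its own kind on neighbouring cells and sits at cadherin junctions. PLXDC2 is a single-pass membrane protein and, with PLXDC1, a described receptor for the secreted factor PEDF, the product of SERPINF1. NAV3 is a neuron navigator, a microtubule-binding protein linked to cell migration. SORL1 is a sorting receptor with a VPS10 domain that moves cargo, including the amyloid precursor protein, between endosomes and the Golgi with the retromer complex. FBXL7 is an F-box protein, the part of an SCF ubiquitin ligase that picks the substrate. CELF2 binds RNA and regulates alternative splicing and RNA stability. BRAF-mutant melanoma cells that outlast inhibition of the MAPK pathway often shift away from the pigment-cell programme, and part of that shift can reverse when the drug is removed.

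RefSeq (GRCh38.p14) lists 22 transcription starts for the 7 genes. Gene-level counts do not say which start was used. PTPRM kept its level without drug, but no stretch of it is shown. Stretches upstream of 4 starts are shown, of other genes that kept or raised their level without drug. No rule for the choice of start is given, and some CELF2 stretches not shown hold no match to a searched motif. Other starts of the same genes differ: over windows of 300 bases, CELF2 starts hold 5 to 54 CpG, EPB41L3 starts 2 to 32 and FBXL7 starts 8 and 34, beside a median of 14 over all windows. Bases are 5′ to 3′ on the gene's strand, annotated exons are left out, and capitals mark a match to a searched motif. The EPB41L3 stretch is chr18:5628992-5629241 on the minus strand, FBXL7 is chr5:15499930-15500179, SORL1 is chr11:121452064-121452202 and CELF2 is chr10:11164845-11165029, the last 3 on the plus strand.
EPB41L3: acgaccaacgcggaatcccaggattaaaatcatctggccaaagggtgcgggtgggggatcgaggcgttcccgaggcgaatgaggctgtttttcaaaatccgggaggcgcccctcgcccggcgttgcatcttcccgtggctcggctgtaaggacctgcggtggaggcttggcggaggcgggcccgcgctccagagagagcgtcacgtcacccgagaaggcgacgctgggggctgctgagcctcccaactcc
FBXL7: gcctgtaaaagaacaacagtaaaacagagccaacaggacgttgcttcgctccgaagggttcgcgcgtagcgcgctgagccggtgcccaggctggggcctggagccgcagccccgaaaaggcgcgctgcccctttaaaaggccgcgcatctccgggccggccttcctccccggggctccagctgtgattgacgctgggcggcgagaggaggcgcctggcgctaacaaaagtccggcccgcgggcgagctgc
SORL1: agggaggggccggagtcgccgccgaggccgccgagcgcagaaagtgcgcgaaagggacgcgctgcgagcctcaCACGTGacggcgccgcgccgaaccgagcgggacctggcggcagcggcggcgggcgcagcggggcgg
CELF2: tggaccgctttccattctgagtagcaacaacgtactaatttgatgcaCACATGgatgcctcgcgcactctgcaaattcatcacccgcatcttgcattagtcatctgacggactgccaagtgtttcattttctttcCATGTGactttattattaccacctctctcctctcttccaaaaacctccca
The EPB41L3, FBXL7 and SORL1 stretches hold 25, 27 and 27 CpG in 250, 250 and 139 bases, and the CELF2 stretch holds 6 in 185. The capitals in SORL1 are the E-box CACGTG, from base 74. Those in CELF2 are the M-box CATGTG, an E-box variant bound by MITF, once on each strand. Over windows of 300 bases around 35116 RefSeq starts, CACGTG on either strand was in 7.26% and CATGTG in 11.1%. The other motifs searched, on both strands, were TGANTCA (AP-1, in 7.71% of windows), GGAATG (TEAD, 14.0%) and CCGGAAG (ETS, 10.3%). None of these is in the 4 stretches shown. Windows of starts not shown do hold some: AP-1, TEAD and ETS at CELF2 starts, and TEAD at an EPB41L3 start and an FBXL7 start. That EPB41L3 window also holds an E-box. A match is a description of the sequence only.

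EPB41L3 was almost silent in parental cells, with 9 counts (0.138 CPM). The 5 persister libraries, in culture order, had 70.5, 33.7, 72.6, 92.0 and 83.5 CPM, and the withdrawn libraries of the same numbers 60.4, 44.7, 62.5, 78.4 and 51.2 CPM. All 10 libraries were high, culture 2 was the lowest in both groups, and the groups overlapped. Pooled over the withdrawn libraries, EPB41L3 was 435 times the parental level, with a 95% counting interval of 229 to 952. Between the means of 70.5 ± 22.3 and 59.5 ± 12.8 CPM (SD, n = 5 each) the log2 fold change from persister to withdrawn was -0.25 ± 0.24 (SE), with a 95% interval of -0.77 to 0.28. This did not pass the test (edgeR quasi-likelihood test, Benjamini-Hochberg adjusted p = 0.413). Without persister culture 2 the change was -0.42 and passed, at an adjusted p of 0.0347.

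PTPRM had 1042 counts (15.9 CPM) in the parental library. Persister cultures 1 to 5 had 70.4, 103, 55.9, 90.8 and 69.96 CPM, and withdrawn cultures 76.9, 62.0, 77.8, 88.9 and 69.5 CPM. Both groups lay well above the parental value, and the withdrawn values lay inside the persister range. PTPRM in withdrawn cells was 4.73 times parental (95% counting interval 4.45 to 5.04), the smallest ratio of the 7 genes. The change from persister to withdrawn was -0.06 ± 0.16 on the log2 scale (95% interval -0.40 to 0.29), and edgeR gave an adjusted p of 0.787.

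PLXDC2 had 2 counts in the parental library, or 0.0306 CPM. In drug it reached 225, 459, 287, 282 and 486 CPM in cultures 1 to 5. After withdrawal the same cultures had 6.57, 4.08, 16.3, 7.47 and 6.36 CPM. Every persister library was far above every withdrawn library, and every withdrawn library was far above the parental one. The mean fell from 348 ± 117 to 8.15 ± 4.70 CPM (SD, n = 5 each), which leaves 2.34% of the persister level. The log2 fold change was -5.42 ± 0.42 (SE), or 42.7-fold lower, in 5 of 5 cultures (edgeR adjusted p = 2.35e-06, exact permutation p = 0.00794, two-sided, the smallest that 252 splits allow). What remained was 269 times the parental level, but 2 counts fix that ratio only to between 74.5 and 2224 (95% counting interval). Within cultures the fall ranged from 17.7-fold in culture 3 to 113-fold in culture 2.

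NAV3 had 19 parental counts (0.291 CPM). Persister cultures had 19.3, 24.95, 16.2, 24.2 and 19.0 CPM and withdrawn cultures 11.6, 7.67, 10.9, 17.9 and 10.5 CPM. Withdrawn culture 4 lay above persister culture 3, so the groups overlapped, but each culture was lower after withdrawal than in drug. NAV3 fell by 0.82 ± 0.21 (SE) on the log2 scale, to 56.5% of the persister mean (edgeR adjusted p = 0.00546, exact permutation p = 0.0159, two-sided). Pooled withdrawn cells kept 40.9 times the parental level, with a 95% counting interval of 26.1 to 67.9.

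SORL1 had 82 parental counts (1.25 CPM). It stood at 27.7, 17.7, 16.8, 28.1 and 17.4 CPM in persister cultures and at 21.9, 29.1, 32.1, 31.7 and 36.5 CPM in withdrawn cultures. The withdrawn libraries were higher in 4 of 5 cultures and lower in culture 1, and the groups overlapped. SORL1 rose by 0.49 ± 0.18 (SE) on the log2 scale, from 21.6 ± 5.79 to 30.3 ± 5.40 CPM (SD, n = 5 each), with an edgeR adjusted p of 0.0423 and an exact permutation p of 0.0476 (two-sided). That call is narrow: it was lost in 9 of 17 alternatives, in which the adjusted p reached 0.107, and with the culture number as a block it was 0.0787. The libraries whose removal ended it were persister 2, 3 and 5 and withdrawn 2, 3, 4 and 5, with log2 fold changes of 0.41 to 0.60 over all 17 alternatives. Withdrawn SORL1 was 24.3 times parental (95% counting interval 19.5 to 30.5).

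FBXL7 had 34 parental counts (0.520 CPM). In persister cultures 1 to 5 it read 7.56, 19.2, 21.1, 42.4 and 29.1 CPM, a 5.61-fold range, and in withdrawn cultures 39.0, 41.5, 30.3, 36.9 and 38.3 CPM, a 1.37-fold range. The withdrawn libraries lay close together near the top of the wide persister range, so the groups overlapped. FBXL7 was higher in 4 of 5 cultures, from 5.15 times in culture 1 to 0.870 times in culture 4, and the log2 fold change of 0.64 ± 0.34 (SE; 95% interval -0.12 to 1.40) did not pass (edgeR adjusted p = 0.141, exact permutation p = 0.0714, two-sided). Without persister culture 4 it was 0.95 with an adjusted p of 0.025. Withdrawn FBXL7 was 71.3 times parental, with a 95% counting interval of 51.0 to 103.

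CELF2 had 28 parental counts (0.428 CPM). It was at 4.64, 8.15, 5.48, 19.6 and 12.9 CPM in persister cultures and at 62.0, 49.5, 49.2, 71.8 and 58.8 CPM in withdrawn cultures. Drug treatment thus went with a modest level, drug removal with a far higher one, and the groups did not overlap. The mean went from 10.2 ± 6.19 to 58.2 ± 9.43 CPM (SD, n = 5 each). CELF2 rose by 2.52 ± 0.37 (SE) on the log2 scale, or 5.73-fold, in 5 of 5 cultures (edgeR adjusted p = 0.000193, exact permutation p = 0.00794, two-sided). The rise within a culture ran from 3.65-fold in culture 4, which had the most CELF2 in drug, to 13.4-fold in culture 1, which had the least. Withdrawn CELF2 was 137 times parental, with a 95% counting interval of 94.7 to 206.

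**Figure D1:**
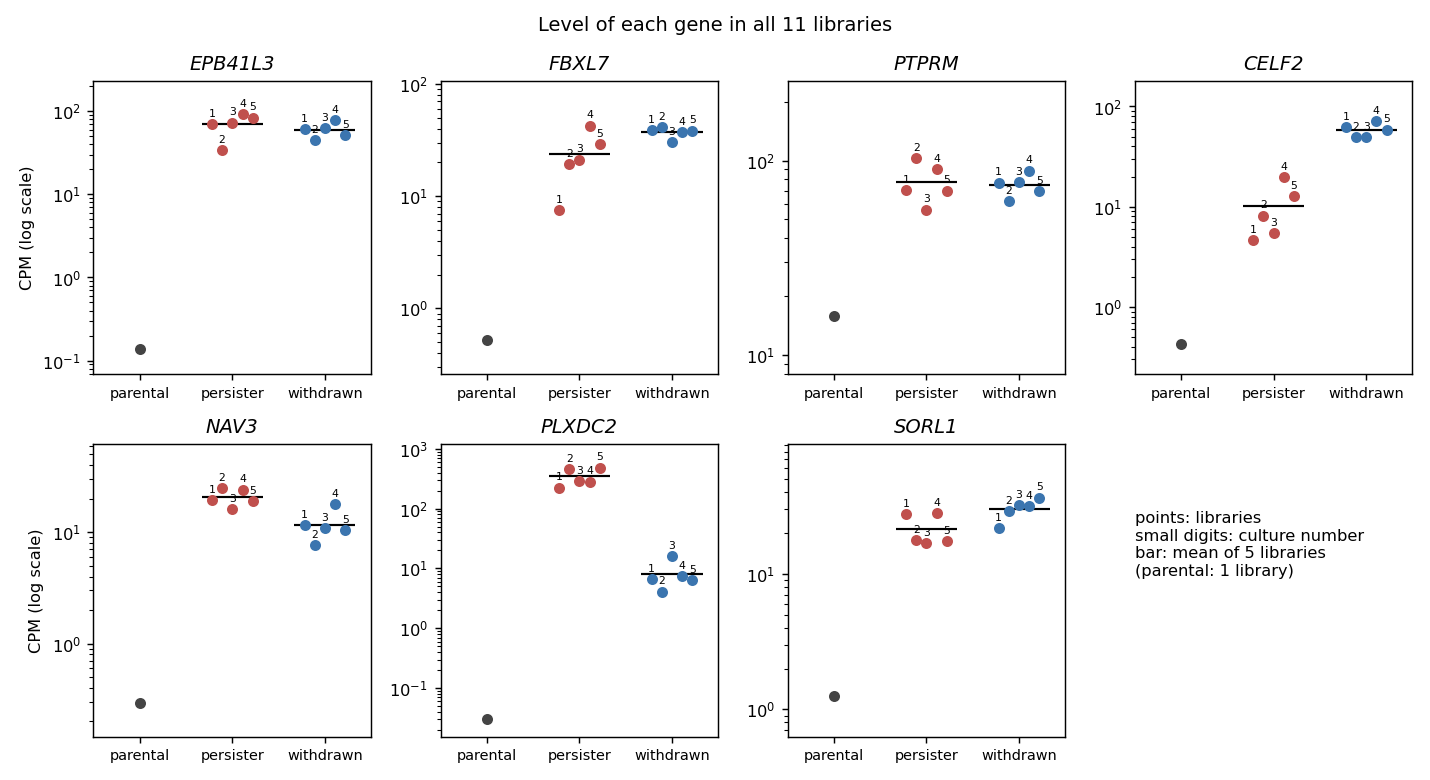
CPM (log axis) of the 7 genes in each of the 11 libraries: points are libraries, small digits the culture number, bars the mean of 5 libraries. PLXDC2 drops from 225 to 486 CPM in drug to 4.08 to 16.3 CPM after it, CELF2 climbs from 4.64 to 19.6 CPM to 49.2 to 71.8 CPM, and every culture value of every gene is above the single parental point.

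Between persister and withdrawn cells, CELF2 and SORL1 rose, PLXDC2 and NAV3 fell, and EPB41L3, FBXL7 and PTPRM did not pass the test. That is 4 of 7 genes, or 57.1%, where 52.5% of all genes tested were called in that comparison (24.5% higher and 28% lower), so the share of calls does not set the 7 genes apart. This comparison shares the withdrawn libraries with the values that chose the genes. Choosing genes for more RNA in withdrawn cells favours a rise over persister cells. The p-values for CELF2 and SORL1, and those of the other genes, do not allow for that choice. An alternative chosen after seeing the data left out persister cultures 1 and 5. The 4 calls held there, with log2 fold changes of 2.38 for CELF2, 0.53 for SORL1, -0.90 for NAV3 and -5.40 for PLXDC2. SORL1 held only narrowly (edgeR adjusted p = 0.0479), and its call was lost without persister 5 alone (0.0845). Cultures 1 and 5 were the persister libraries with the least MKI67, a proliferation marker, at 154 and 45.4 CPM. The other persister libraries had 496 to 707 CPM of MKI67, the withdrawn libraries 553 to 685 CPM and the parental library 865 CPM. The mitochondrial share of counts was 4.51 to 9.28% in persister, 3.15 to 3.7% in withdrawn and 2.96% in parental cells. The 9 fibroblast markers summed to 84.0 to 386 CPM in persister, 38.1 to 51.7 CPM in withdrawn and 19.7 CPM in parental cells, and 7 of the 9 fell from persister to withdrawn cells. The part of these in the changes of the 7 genes was not tested.

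**Figure D2:**
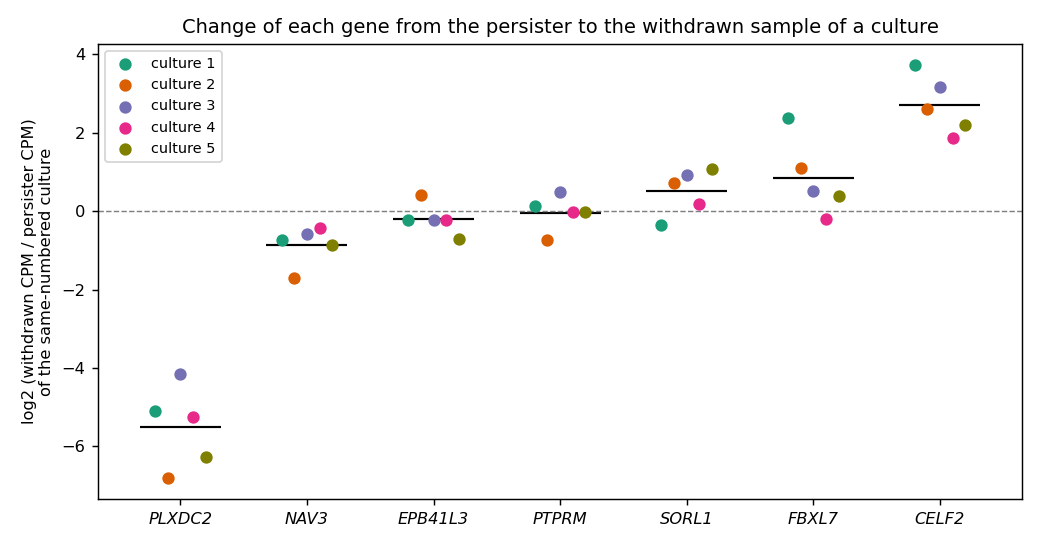
Log2 ratio of withdrawn to persister CPM within each numbered culture (coloured points), with the mean of the 5 cultures as a bar and no change as a dashed line. PLXDC2 and NAV3 lie below the line in 5 of 5 cultures and CELF2 above it in 5 of 5, while EPB41L3, PTPRM, SORL1 and FBXL7 have cultures on both sides.

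Per length of exon (RPKM, from the CPM and the union of annotated exons), the order of the levels changed between the groups. In persister cells PLXDC2 led with 27.7 ± 9.30 RPKM (SD, n = 5), followed by PTPRM at 7.87 ± 1.88, EPB41L3 at 5.77 ± 1.83 and FBXL7 at 4.92 ± 2.66 RPKM, the last 2 within each other's spread. NAV3 at 1.56 ± 0.280, SORL1 at 1.11 ± 0.298 and CELF2 at 0.925 ± 0.564 RPKM were the lowest, and the last 2 did not differ beyond their spread. In withdrawn cells FBXL7 at 7.66 ± 0.868 and PTPRM at 7.58 ± 1.02 RPKM were level within their spread, as were CELF2 at 5.31 ± 0.859 and EPB41L3 at 4.87 ± 1.05 RPKM. SORL1 followed at 1.56 ± 0.278 RPKM, then NAV3 at 0.883 ± 0.283 and PLXDC2 at 0.648 ± 0.374 RPKM, which were again within each other's spread. PLXDC2 thus went from the top of the 7 to the low end, where it was not set apart from NAV3.

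The cultures also spread differently by gene. The coefficient of variation (SD over mean) of CELF2 went from 61.0% in persister to 16.2% in withdrawn cells and that of FBXL7 from 54.1 to 11.3%. PLXDC2 and NAV3, which fell, went the other way, from 33.6 to 57.7% and from 17.9 to 32.1%. Each of these 2 rises leans on a single withdrawn library. For PLXDC2 the highest withdrawn value was 16.3 CPM (culture 3) and the next 7.47 CPM. For NAV3 the highest was 17.9 CPM (culture 4) and the next 11.6 CPM. The coefficients are descriptions over 5 libraries each. Over all 11 libraries on the log2 scale, EPB41L3 and NAV3 had the most alike profiles of the 21 pairs (Pearson r = 0.955) and CELF2 and PLXDC2 the least alike (r = 0.14). All pairs share the single low parental library, so no p is given.

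The protein-coding genes whose profiles were most like the mean of the 7 over the 11 libraries were DLX5 (r = 0.978), EEF1AKMT3 (0.973), P2RX7 (0.967), MAP2 (0.954), RARB (0.948), MED15 (0.945), GALK2 (0.935), PTK2B (0.935), GREB1 (0.933) and FAM227B (0.928). Each of these genes was lower in the single parental library than in the persister and withdrawn means. That library enters every r, so a shared low parental value can give a high r without likeness among the cultures. Likeness over the persister and withdrawn libraries alone was not tested. The mean levels of 3 of these genes are given here. P2RX7, an ATP-gated channel, had 3.29 CPM in parental cells, 19.4 ± 6.36 CPM in persister and 19.4 ± 2.39 CPM in withdrawn cells (SD, n = 5 each). RARB, a retinoic acid receptor, had 2.19, 12.8 ± 4.79 and 12.9 ± 1.12 CPM in the same order. MED15, a subunit of the tail of the Mediator complex, which is named in the study's title, had 49.7, 60.0 ± 0.694 and 61.2 ± 1.71 CPM.

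By single gene, PLXDC2 was most like CASP1, an inflammatory caspase (r = 0.993; 0.0153 CPM in parental, 20.4 ± 9.69 in persister and 1.42 ± 0.549 in withdrawn cells), and IGFBP7 (r = 0.988). CELF2 was most like ANKRD30B (r = 0.971) and ANKRA2 (0.961), NAV3 like TMEM159 (0.983) and SLC25A31 (0.974), and PTPRM like MAP2 (0.992) and DLX5 (0.958). EPB41L3 was most like EEF1AKMT3 (0.962) and NSMCE2 (0.958), FBXL7 like ENOX1 (0.966) and DLX5 (0.959), and SORL1 like MED15 (0.976) and L3MBTL4 (0.951). The correlations are over 11 libraries and were picked as the highest among all protein-coding genes tested. They too include the single low parental library, and likeness over the persister and withdrawn libraries alone was not tested.

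All 7 genes were called higher than parental in both groups, and nothing is read from that, since the choice of genes used it. For scale, 31.2% of all genes were called in persister against parental cells (16.1% higher), and 0.431% in withdrawn against parental cells (0.312% higher). Called higher in both were 59 genes, or 0.249%. Of those 59 genes, 28 (47.5%) were called lower after withdrawal than in drug and 15 (25.4%) higher. PLXDC2 had the lowest and CELF2 the second highest log2 fold change from persister to withdrawn among them. With the withdrawn and parental libraries fitted alone, 16.1% of 21590 genes were called higher in withdrawn cells, so the number of genes still called higher changed with the libraries fitted.

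Of 94 listed family relatives and partners of the 7 genes, 88 were tested. Against parental cells, 12 (13.6%) were higher and 18 (20.5%) lower in persister cells, beside 16.1% and 15.1% of all genes tested, and none passed in withdrawn cells (edgeR; 10 of 88 at an unadjusted p under 0.05). Other fits of withdrawn against parental cells did call some relatives or partners: DESeq2, and edgeR on the 6 withdrawn and parental libraries. Both also called more of all genes than the main fit, so nothing is read from those calls. The share of all genes at an unadjusted p under 0.05 is not given, so the 10 of 88 has no background. The median log2 fold change of the 88 genes was -0.06 in persister and 0.00 in withdrawn cells against parental, beside 0.09 and 0.05 over all genes tested. From persister to withdrawn, 25 rose and 27 fell, or 59.1% called beside 52.5% of all genes. The examples that follow were in part chosen after their values were seen.

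Among the adhesion and membrane skeleton genes, PTPRK, a phosphatase of the same subfamily as PTPRM, went from 37.5 CPM in parental to 138 ± 23.3 CPM in persister cells and back to 38.0 ± 2.39 CPM in withdrawn cells (SD, n = 5 each). PTPRK fell by 1.86 ± 0.12 (SE) on the log2 scale after withdrawal (edgeR adjusted p = 3.28e-07), where PTPRM had stayed within its spread. PTPRU of that subfamily had 14.7, 21.8 ± 13.6 and 14.8 ± 0.561 CPM and was not called in any of the 3 comparisons, and PTPRT did not reach the count filter. EPB41L1, a paralogue of EPB41L3, likewise went from 42.1 to 90.5 ± 22.8 and to 36.6 ± 4.89 CPM, a fall of 1.31 on the log2 scale (adjusted p = 6.09e-05). CADM4, an adhesion molecule that binds protein 4.1, moved in the opposite sense, from 106 to 27.1 ± 6.40 and to 103 ± 5.44 CPM.

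For PLXDC2, the sister gene PLXDC1 had 0.122 CPM in parental, 2.08 ± 0.714 CPM in persister and 0.282 ± 0.0764 CPM in withdrawn cells (SD, n = 5 each) and fell 7.33-fold after withdrawal (edgeR adjusted p = 2.39e-05). SERPINF1, which encodes the ligand, had 20.03, 2.10 ± 1.18 and 20.2 ± 3.71 CPM, low where PLXDC2 was high, and rose 9.67-fold after withdrawal (adjusted p = 9.49e-06). CTTN, a cortical actin protein listed with them, had 335, 438 ± 32.4 and 265 ± 9.77 CPM.

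For NAV3, the other two navigators parted. NAV2 had 7.01 CPM in parental, 49.9 ± 18.4 CPM in persister and 16.6 ± 3.16 CPM in withdrawn cells and fell 3.00-fold (edgeR adjusted p = 0.000209), and NAV1 had 111, 64.4 ± 18.7 and 102 ± 2.53 CPM and rose 1.58-fold (adjusted p = 0.0121). Among the VPS10 receptors beside SORL1, SORT1 had 80.2, 180 ± 56.3 and 88.2 ± 6.04 CPM and fell after withdrawal (adjusted p = 0.000664), and SORCS1 had 80.8, 7.88 ± 3.91 and 90.2 ± 13.4 CPM and rose (adjusted p = 4.98e-06). SORCS2 was low throughout, at 0.643, 0.242 ± 0.127 and 0.509 ± 0.139 CPM, and SORCS3 did not reach the count filter. Of the 9 retromer, GGA and cargo genes listed with SORL1, 1 rose and 3 fell after withdrawal. The F-box relatives of FBXL7 were 4 higher and 5 lower of 19 after withdrawal. Of the CELF and MBNL genes 5 of 8 were tested and 1, MBNL3, rose.

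**Figure D3:**
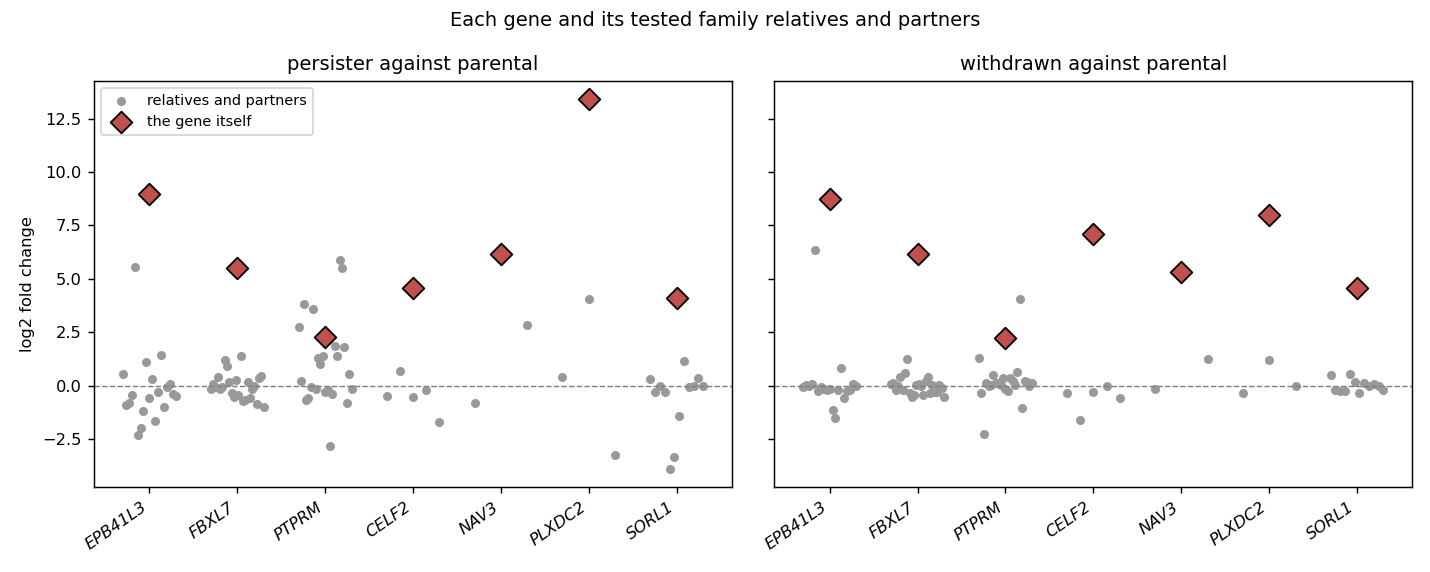
Log2 fold change against the parental library in persister (left) and withdrawn cells (right) for each of the 7 genes (diamonds) and its tested relatives and partners (grey points). In withdrawn cells the diamonds lie between 2.23 (PTPRM) and 8.73 (EPB41L3), while the median of the 88 grey points is 0.00. The grey point at 6.35 is CADM2, which had 0 parental counts, so its fitted value is no bound. The grey point at 4.05, above the PTPRM diamond, is the receptor phosphatase gene PTPRO. It had 0.337 CPM in parental, 19.7 ± 36.2 CPM in persister and 5.60 ± 4.60 CPM in withdrawn cells (SD, n = 5 each).

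The 7 genes are long. Their spans are 238.3 kb for EPB41L3, 439.6 kb for FBXL7, 840.1 kb for PTPRM, 538.3 kb for CELF2, 888.4 kb for NAV3, 473.6 kb for PLXDC2 and 181.5 kb for SORL1, between the 90.2nd and 99.5th percentile of protein-coding genes tested. Their median of 473.6 kb compares with 32.96 kb over all 15372 such genes. The other 48 protein-coding genes called higher in both groups had a median span of 44.05 kb, and 20.8% of them were at least as long as SORL1, beside 9.78% of all. Of protein-coding genes of 200 kb or more, 1.21% were called higher in withdrawn than in parental cells, against 0.287% of those under 20 kb, 0.438% at 20 to 100 kb and 0.376% at 100 to 200 kb. The bins of 200 kb or more and of 100 to 200 kb hold 6 and 1 of the 7 genes, which were chosen for this rise, and without them the shares are 0.758% (10 of 1319 genes) and 0.322%. The lengths are given as a description, with no test.

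On GRCh38 (GENCODE 29) the 7 genes lie at chr18:5392381-5630700 (EPB41L3, minus strand), chr18:7566782-8406861 (PTPRM), chr10:10798397-11336675 (CELF2), chr10:19816239-20289856 (PLXDC2), chr12:77324641-78213008 (NAV3), chr11:121452203-121633693 (SORL1) and chr5:15500196-15939795 (FBXL7), the last 6 on the plus strand. EPB41L3 and PTPRM are 1936 kb apart, and CELF2 and PLXDC2 8480 kb. Within 1 Mb of the 7 genes, 39 protein-coding genes were tested. Persister cells had 7 of them (17.9%) higher and 11 (28.2%) lower than parental cells, beside 16.1% and 15.1% of all genes, and none passed in withdrawn cells (edgeR; 7 of 39 at an unadjusted p under 0.05). Other fits of withdrawn against parental cells called some of these neighbours: DESeq2, and edgeR on the 6 withdrawn and parental libraries. Both also called more of all genes than the main fit, so nothing is read from those calls. The share of all genes at an unadjusted p under 0.05 is not given, so the 7 of 39 has no background.

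L3MBTL4, a chromatin protein gene between EPB41L3 and PTPRM, had 1 parental count (0.0153 CPM), 1.25 ± 1.01 CPM in persister and 2.28 ± 0.488 CPM in withdrawn cells (SD, n = 5 each). Its withdrawn level was 149 times parental, which 1 count fixes only to between 26.7 and 5900 (95% counting interval), and the edgeR adjusted p was 0.0562, where DESeq2 gave 0.000779. Also between EPB41L3 and PTPRM, nearer to the latter, the laminin gene LAMA1 had 0.597, 28.6 ± 22.1 and 7.55 ± 3.03 CPM and ARHGAP28 0.444, 14.8 ± 9.89 and 3.09 ± 0.691 CPM. MALRD1, 25.8 kb from PLXDC2, had 0.122, 5.65 ± 2.91 and 0.613 ± 0.0836 CPM. For these 3 genes the adjusted p of withdrawn against parental cells was 0.22, 0.186 and 0.201. L3MBTL4, LAMA1 and MALRD1 are nearest tested neighbours, and ARHGAP28 was picked after its values were seen. On the opposite flanks of the same genes, ZBTB14 beside EPB41L3, RAB12 beside PTPRM and NEBL beside PLXDC2 had log2 fold changes of 0.06, 0.06 and 0.16 in withdrawn against parental cells. The nearest tested neighbours of the other 4 loci, ANKH, ZNF622, GATA3, USP6NL, E2F7, SYT1, SC5D and BLID, had values of -0.28 (GATA3) to 0.54 (SC5D) in withdrawn cells. GATA3 is 2720 kb from CELF2.

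**Figure D4:**
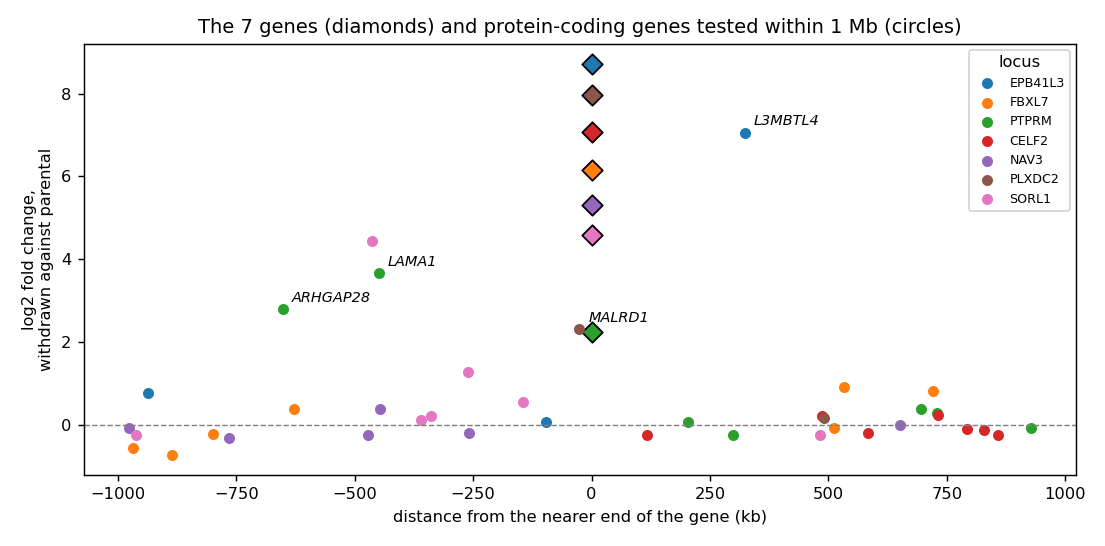
Log2 fold change of withdrawn against parental cells for the 7 genes (diamonds at distance 0) and the 39 protein-coding genes tested within 1 Mb (circles, coloured by locus), by distance in kb. L3MBTL4 lies at 7.06, LAMA1 at 3.66, ARHGAP28 at 2.79 and MALRD1 at 2.31, and the unnamed circle at 4.45 is GRIK4, which had 0 parental counts and a mean of 0.0387 CPM in withdrawn cells, so that its fitted value is no bound.

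Non-coding RNAs annotated at PLXDC2 fell with it. AL353147.1 starts near the PLXDC2 start on the opposite strand and shares 40 exon bases with it. It had 0 counts in the parental library, 37 to 85 counts in the persister libraries and 0 to 10 counts in the withdrawn libraries, or 0.797 ± 0.269 and 0.0567 ± 0.0656 CPM (SD, n = 5 each). AL353147.1 fell by 3.77 on the log2 scale after withdrawal (edgeR adjusted p = 0.000506). The strand setting of the counting is not stated, so reads from the shared bases cannot be told apart. AC069549.1, an antisense RNA, shares 0 exon bases with PLXDC2. Its counts were low: 0 in the parental library, 1 to 13 in the persister and 0 to 1 in the withdrawn libraries. AC069549.1 fell by 4.15 on the log2 scale after withdrawal (edgeR adjusted p = 0.00449). Of 25 non-coding RNAs and other small genes annotated within the 7 genes, 4 were tested, and among the rest PTPRM shares 101 exon bases with AP001094.1, which had at most 1 count in any library.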

How the data were processed

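The authors deposited 1 table of whole read counts per gene, not normalized, with 1 column for each of the 11 libraries. Per the labels' protocols, a column kit yielded the RNA and a stranded mRNA kit the libraries. Per the submitters' processing notes, bcl2fastq, HISAT2, HTSeq and hg38 were used. For versions, the strand setting and the annotation the sources used here give nothing.

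All 58721 gene IDs matched GENCODE release 29, which gave symbols, coordinates and exon lengths. The counts went into edgeR 4.0.16 (R 4.3.3), with filterByExpr by group (minimum count 10, minimum total 15), TMM scaling, a robust quasi-likelihood fit of all 11 libraries in 3 groups with 8 residual degrees of freedom, and Benjamini-Hochberg adjustment over 23693 genes at a threshold of 0.05. The parental group has 1 library and is assumed to vary like the others. CPM use the TMM-scaled sizes, and profile correlations use log2 CPM with a prior count of 2. Exact permutation tests compared the mean log2 CPM of 5 persister and 5 withdrawn libraries over 252 splits. These splits leave the pairing by culture number out of account. Intervals on parental ratios are exact 95% counting intervals and cover counting error only. Only the withdrawn against persister comparison was run on simulated counts, without a parental library and with far fewer changed genes than were called here. The comparisons with the parental library were not checked in this way, and the outcome is not given here. Promoters came from RefSeq, GRCh38.p14.

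The 7 genes, the lists of relatives, partners and markers, and the tests were chosen with earlier results of these data known. Genes named beside the 7 are the 10 nearest to their mean profile, the 2 nearest to each, the nearest tested neighbours, families of 4 or fewer, the 2 smallest adjusted p in withdrawn against parental cells among called genes of each list of relatives and partners (no such gene was called), and some picked after their values were seen. Alternatives were DESeq2 1.42.0, limma-voom (limma 3.58.1), upper-quartile scaling, other count filters, leaving out each library, 6-library fits, a block for the culture number, and leaving out persister cultures 1 and 5. The sample titles tie each withdrawn sample to the persister culture of its number. Libraries of the same number deviated from their group means together, with correlations across genes of 0.0484 to 0.0909, and in 5 of 5 cases correlated best with their own number.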

Additional observations from a re-analysis of the deposited data

Results flagged for a closer look

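PLXDC2 in withdrawn culture 3 stood apart from the other withdrawn libraries, at 16.3 CPM with the next highest at 7.47 CPM. The gap is 0.722 of the range of the 5 values, above the limit of 0.71 for a group of 5. It was 1 of 14 groups of libraries examined for the 7 genes, and chance flags about 1 in 20 such groups.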

How the results depend on the processing

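The rises and falls of CELF2, NAV3 and PLXDC2 between persister and withdrawn cells kept their direction and their call in 17 of 17 alternatives each. The log2 fold changes ran from 2.33 to 2.90, -1.02 to -0.71 and -5.83 to -5.25. Of 238 alternative values of the 7 genes against parental cells, 0 moved by more than 1 SD and 0 reversed. Each of these alternatives kept the single parental library, and the 7 genes were chosen for this rise. Nothing is therefore read from that stability or from the calls against parental cells that follow. The call of FBXL7 in withdrawn against parental cells held in 11 of 17 alternatives, that of PLXDC2 in 12, that of CELF2 in 15, that of EPB41L3 in 16, and those of NAV3, PTPRM and SORL1 in 17. With the culture number as a replicate block, 5211 genes were called higher and 5419 lower of 19631 in withdrawn against persister cells. Among the 7 genes the block ended only the call of SORL1 (log2 fold change 0.50, adjusted p = 0.0787).

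The count of genes higher in withdrawn than in parental cells, 74, was 775 with DESeq2, 3483 with the 6 withdrawn and parental libraries alone and 1241 without persister cultures 1 and 5, the last chosen after seeing the data. Leaving out each library gave 19 (without withdrawn 5) to 374 (without persister 5). The count lower, 28, was 409, 3110 and 845 in the same order, 49 with at least 10 counts in 5 libraries, 51 with limma-voom, and 4 to 184 leaving out each library, at the same 2 libraries. With the 6 persister and parental libraries alone, persister cells had 1354 genes higher and 1215 lower. The cause was not tested.

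Changes near 0 changed sign without a call. PTPRM between persister and withdrawn cells ranged from -0.16 to 0.06 leaving out each library. In withdrawn against parental cells PTPRK was 0.00 with DESeq2, -0.01 with upper-quartile scaling and -0.02 to 0.04 leaving out each library. SERPINF1 was -0.01 with DESeq2 and limma-voom, -0.02 with upper-quartile scaling, 0.00 with 6 libraries and -0.03 to 0.12 leaving out each library.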
